A study of Mus musculus with 21 samples.

Results

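The expression of 9 CC chemokine genes was followed across the treatment groups of a macrophage experiment: Ccl2, Ccl7, Ccl12, Ccl8, Ccl3, Ccl4, Ccl5, Ccl6 and Ccl9. They were taken by gene symbol, as 9 of the 34573 genes in the deposited count table, and all 9 were among the 6812 genes that passed the filter on low counts. The list was chosen with earlier results of these data known. The cells were bone-marrow-derived macrophages of C57bl/6 mice aged 12 weeks, grown from marrow for 6 days in medium conditioned by L929 cells, a source of the growth factor M-CSF. All groups share this strain and culture. Control cells received nothing (3 libraries). Other cells received dimethyl malonate (DMM, 4 libraries) or succinate (4 libraries) for 3 h. LPS was given alone for 4 h (2 libraries) or 48 h (2 libraries, of which 1 is kept apart below), after DMM for 4 h (2) or 48 h (2), or after succinate for 4 h (1) or 48 h (1). LPS is lipopolysaccharide, a bacterial cell wall component; succinate dehydrogenase oxidises succinate, and DMM enters cells and is cleaved to malonate, which blocks this enzyme by competing with its substrate. The labels give neither doses nor whether libraries of a group came from separate animals or cultures, so that p-values measure the spread between these libraries, which may be technical. The names of the unstimulated columns give no hours, so the unstimulated libraries of each treatment form 1 group. Replicate labels of unstimulated samples follow both patterns, A or B as with LPS 4 h and 1 or 2 as with LPS 48 h. Comparisons of LPS with unstimulated groups therefore mix these sets, and the model holds no term for set. Libraries are named below by group and by the number in the count table.

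CC chemokines are small secreted proteins that guide leukocytes by binding receptors coupled to G proteins. Macrophages that sense LPS through the receptor TLR4 switch on many of them, through the transcription factors NF-kB and AP-1 and, by way of interferon, through IRF and STAT factors. Ccl2, Ccl7 and Ccl12 attract monocytes through the receptor CCR2. Ccl3, Ccl4 and Ccl5 draw monocytes and T cells, Ccl3 and Ccl5 in part through CCR1. Ccl6 and Ccl9 are rodent chemokines that bind CCR1 and are made by resting myeloid cells as well, and mouse Ccl8 is known as a ligand of CCR8.

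All 9 genes lie on chromosome 11. In gene order Ccl2 and Ccl7 are neighbours, then follow Ccl12 and Ccl8 after 1 other coding gene, Ccl5, Ccl9 and Ccl6 after 26 others, and Ccl3 and Ccl4 after 1 other. No exon of a member overlaps an exon of another gene in the annotation used. The longest identical stretch between transcripts of different members is 25 bases, in Ccl6 and Ccl9, and the next is 23 bases, in Ccl2 and Ccl7. RefSeq promoter windows (build GRCm38.p6, 250 bases before to 50 bases after the gene start) were found for 5 of the 9 genes: Ccl12, Ccl8, Ccl3, Ccl6 and Ccl9. Of these, 3 are shown: Ccl12, which rose with LPS, and Ccl6 and Ccl9, which had the largest decreases when DMM preceded LPS 4 h. The genes are not opposites: Ccl12 was also called lower when DMM preceded LPS 4 h, and Ccl6 was also called higher with LPS 4 h. The windows are Ccl12 at chr11:82101595-82101894 on the plus strand, Ccl9 at chr11:83578587-83578886 on the minus strand and Ccl6 at chr11:83593038-83593337 on the minus strand, each printed 5′ to 3′ along the gene. Capitals mark every match, on either strand, to TATAAA, to TGANTCA, a loose AP-1 pattern, to GAAANNGAAA, a core of interferon response elements, or to the NF-kB consensus. N stands for any base.
Ccl12 promoter: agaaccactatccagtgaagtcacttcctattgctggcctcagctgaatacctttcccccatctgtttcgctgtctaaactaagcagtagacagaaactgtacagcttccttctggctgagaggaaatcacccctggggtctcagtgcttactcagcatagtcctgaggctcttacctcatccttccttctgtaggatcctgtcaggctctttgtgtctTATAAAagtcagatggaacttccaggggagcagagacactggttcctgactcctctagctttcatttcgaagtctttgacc
Ccl9 promoter: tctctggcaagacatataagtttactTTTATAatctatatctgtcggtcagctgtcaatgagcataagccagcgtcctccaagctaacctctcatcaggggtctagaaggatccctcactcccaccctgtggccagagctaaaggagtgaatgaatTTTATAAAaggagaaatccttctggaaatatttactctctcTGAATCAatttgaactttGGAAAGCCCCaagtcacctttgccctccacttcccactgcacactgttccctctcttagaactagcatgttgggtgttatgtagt
Ccl6 promoter: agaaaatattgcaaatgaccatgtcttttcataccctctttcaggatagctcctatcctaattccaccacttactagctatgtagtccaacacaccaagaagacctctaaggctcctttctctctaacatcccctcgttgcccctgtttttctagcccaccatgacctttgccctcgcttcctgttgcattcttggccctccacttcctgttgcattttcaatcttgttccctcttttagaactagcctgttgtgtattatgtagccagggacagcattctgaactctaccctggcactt

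The Ccl12 window holds TATAAA from position -31 relative to the gene start. The Ccl9 window holds TGAATCA, a match to the loose AP-1 pattern, from -53 and an NF-kB match on the opposite strand from -35. It also holds TATAAA from -92 with an overlapping match on the opposite strand from -94, and another on the opposite strand from -224. Ccl8 holds TATAAA from -32. The Ccl6 and Ccl3 windows hold none of the 4 motifs. Among 32851 promoter windows of the same length, 13.6% hold TATAAA, 8.46% the NF-kB consensus, 7.81% TGANTCA and 3.44% GAAANNGAAA. The longest identical run shared by the Ccl6 and Ccl9 windows is 13 bases, GCCCTCCACTTCC. Shorter runs are shared as well and were not counted. These matches describe letters in a window and say nothing of binding.

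Total counts ran from 662186 to 1546867 per library. A gene with 0 counts in a library can lie at up to 3 counts there, which is 1.94 to 4.53 CPM of the uncorrected total. CPM is a gene's read count scaled to a library total that is the same for all libraries. This limit covers counting error only, as reads of amplified cDNA without molecular identifiers are not independent molecules. CPM values of genes below use library sizes corrected by edgeR's TMM factors, so that a few abundant transcripts do not lower the others. The library labelled LPS 48 h 1 did not match its label. Its Saa3, an acute-phase gene induced by LPS, was at 33.8 CPM, against at most 109.3 CPM in the 11 unstimulated libraries and at least 54610.2 CPM in the other 9 libraries given LPS. Of the 9 chemokines, 8 lay within the range of the unstimulated libraries there; Ccl12, at 3.56 CPM, was the exception. This library enters no value below unless named, which leaves LPS 48 h with 1 library. The alternative with all 21 libraries puts it back into the LPS 48 h group. The model shares its estimate of a gene's spread among all groups. A call can thus be lost there at a nearly unchanged fold change, also in comparisons without LPS 48 h. A group with 1 library takes its spread from the other groups in the model. Of the macrophage markers, 8 of 8 were detected in every group, with a summed level of 52417 to 163758 CPM, most of it Lyz2. The neutrophil list summed to 42.7 to 68.8 CPM after LPS 4 h, 199.5 to 320.3 CPM after DMM then LPS 4 h and 565 CPM after succinate then LPS 4 h. Nearly all of this was S100a8, with Ly6g and Ltf at 0 counts and S100a9 at 1 count or 0 in every group. The fibroblast list summed to 6.45 to 17.1 CPM after LPS 4 h and 33.4 to 40.5 CPM after DMM then LPS 4 h, mostly Dcn.

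In control cells Ccl9 made up most of the chemokine counts. It lay at 1042, 951 and 852 CPM in controls 1, 3 and 4. Ccl3 followed at 95.9, 54.0 and 33.3 CPM in these libraries, Ccl6 at 90.8, 76.2 and 56.5 CPM, and Ccl4 at 36.5 ± 11.7 CPM (SD, n = 3). Ccl5 was low, at 16.3, 19.9 and 13.1 CPM. Ccl2, Ccl7, Ccl12 and Ccl8 were near the limit of detection: over the 3 control libraries Ccl2 had 12 counts, Ccl12 had 3, Ccl8 had 2 and Ccl7 had 1. Together the 9 genes took 0.0880% to 0.182% of all counts in the 11 unstimulated libraries. After LPS alone they took 1.30% and 1.39% at 4 h and 1.67% at 48 h. The largest shares were 2.14% and 2.06%, in DMM then LPS 48 h, where Ccl5 alone took 1.93% and 1.83%. Succinate then LPS gave the smallest shares of the stimulated libraries, 0.429% at 4 h (95% exact Clopper-Pearson interval 0.417% to 0.442%) and 0.676% at 48 h (0.661% to 0.691%). Such intervals treat reads as independent and leave out the spread between libraries. Those of the 2 LPS 4 h libraries, 1.28% to 1.32% and 1.37% to 1.41%, do not overlap.

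**Figure D1:**
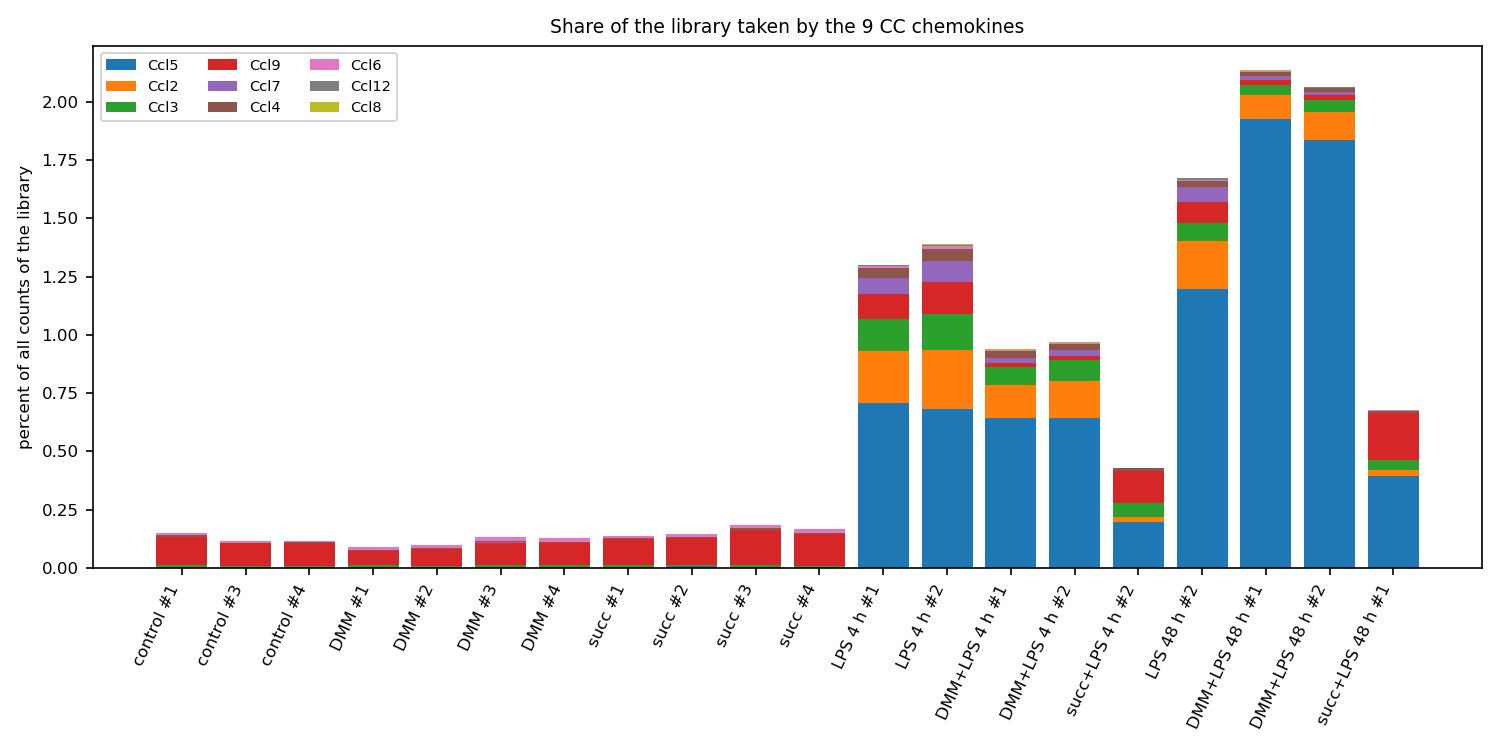
Percent of all counts of each library taken by the 9 CC chemokines, stacked by gene; each bar is 1 library, with its number in the count table. Ccl9 fills most of the unstimulated bars, which reach at most 0.182%, and Ccl5 is the largest segment in every library given LPS that is shown; the one labelled LPS 48 h 1 is left out.

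LPS for 4 h raised 8 of the 9 chemokines against control, where edgeR called 15.4% of all tested genes higher (adjusted p under 0.05). The member not called was Ccl9. Their median log2 fold change was 4.98, against -0.07 over all tested genes. The largest rises were those of the CCR2 ligands and of Ccl5. Ccl7, Ccl12 and Ccl8 reached at most 1.58, 3.03 and 2.35 CPM in unstimulated libraries. They passed the filter, at 9.64 CPM, only through libraries given LPS. The list was also chosen with earlier results known. For LPS against unstimulated cells, here and below, the share of all genes is therefore a description and no test of the family. In bulk samples more RNA per cell and more cells of an expressing type cannot be told apart.

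Ccl2, the main monocyte attractant of this family, lay at 7.14, 3.52 and 2.02 CPM in controls 1, 3 and 4 and at 2863 and 3533 CPM in LPS 4 h libraries 1 and 2. The groups lay far apart, and the log2 fold change was 9.52 ± 0.55 (SE; edgeR adjusted p = 1.06e-14). Ccl7 lay at 0, 0 and 1.01 CPM in controls and at 916 and 1252 CPM after LPS 4 h. With 1 count over the controls its fold is poorly bounded from above: the ratio of scaled counts was 3059 (95% counting interval 548.5 to 120900). Ccl12 lay at 0, 0 and 3.03 CPM in controls and at 58.7 and 104 CPM after LPS 4 h, a ratio of 76.6 (25.7 to 375.7). Ccl8 stayed low, at 4.27 and 14.0 CPM after LPS 4 h against 0, 2.35 and 0 CPM in controls, a ratio of 12.9 (3.05 to 114.7; edgeR adjusted p = 0.00716). Without LPS 4 h library 2 the Ccl8 call was lost (adjusted p = 0.245).

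Of Ccl3, Ccl4 and Ccl5, Ccl5 showed the largest rise. It lay at 9061 and 9483 CPM after LPS 4 h, a mean of 9272 ± 298 (SD, n = 2) against 16.5 ± 3.41 in controls (SD, n = 3). Its log2 fold change was 9.13 ± 0.53 (edgeR adjusted p = 1.40e-14), and it was the most abundant member in every library given LPS. Ccl3 and Ccl4, neighbouring genes that encode macrophage inflammatory proteins, started from a measurable level and rose less. Ccl3 reached 1770.3 and 2097 CPM, a log2 fold change of 4.98 ± 0.41 (adjusted p = 2.61e-11). Ccl4 reached 507 and 718 CPM, a log2 fold change of 4.06 ± 0.31 (adjusted p = 5.87e-12). For each of the 3 genes, no control library overlapped a library given LPS.

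Ccl6 and Ccl9 changed by less than a factor of 2 with LPS alone at 4 h. Unstimulated cells already expressed both, but also Ccl3, another ligand of CCR1, at a mean of 61.1 CPM in controls, and Ccl3 rose far more. Ccl6 lay at 115 and 155 CPM after LPS 4 h, above all 3 controls, with a log2 fold change of 0.86 ± 0.30 (edgeR adjusted p = 0.0325). That call was lost with DESeq2 (adjusted p = 0.0978) and without control 3, control 4 or LPS 4 h library 2 (0.0646, 0.134 and 0.296). Ccl9 lay at 1385 and 1934 CPM, also above all controls, but its log2 fold change of 0.81 ± 0.33 was not called (adjusted p = 0.0713; 0.0183 when the model held only the unstimulated and the 4 h LPS groups).

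**Figure D2:**
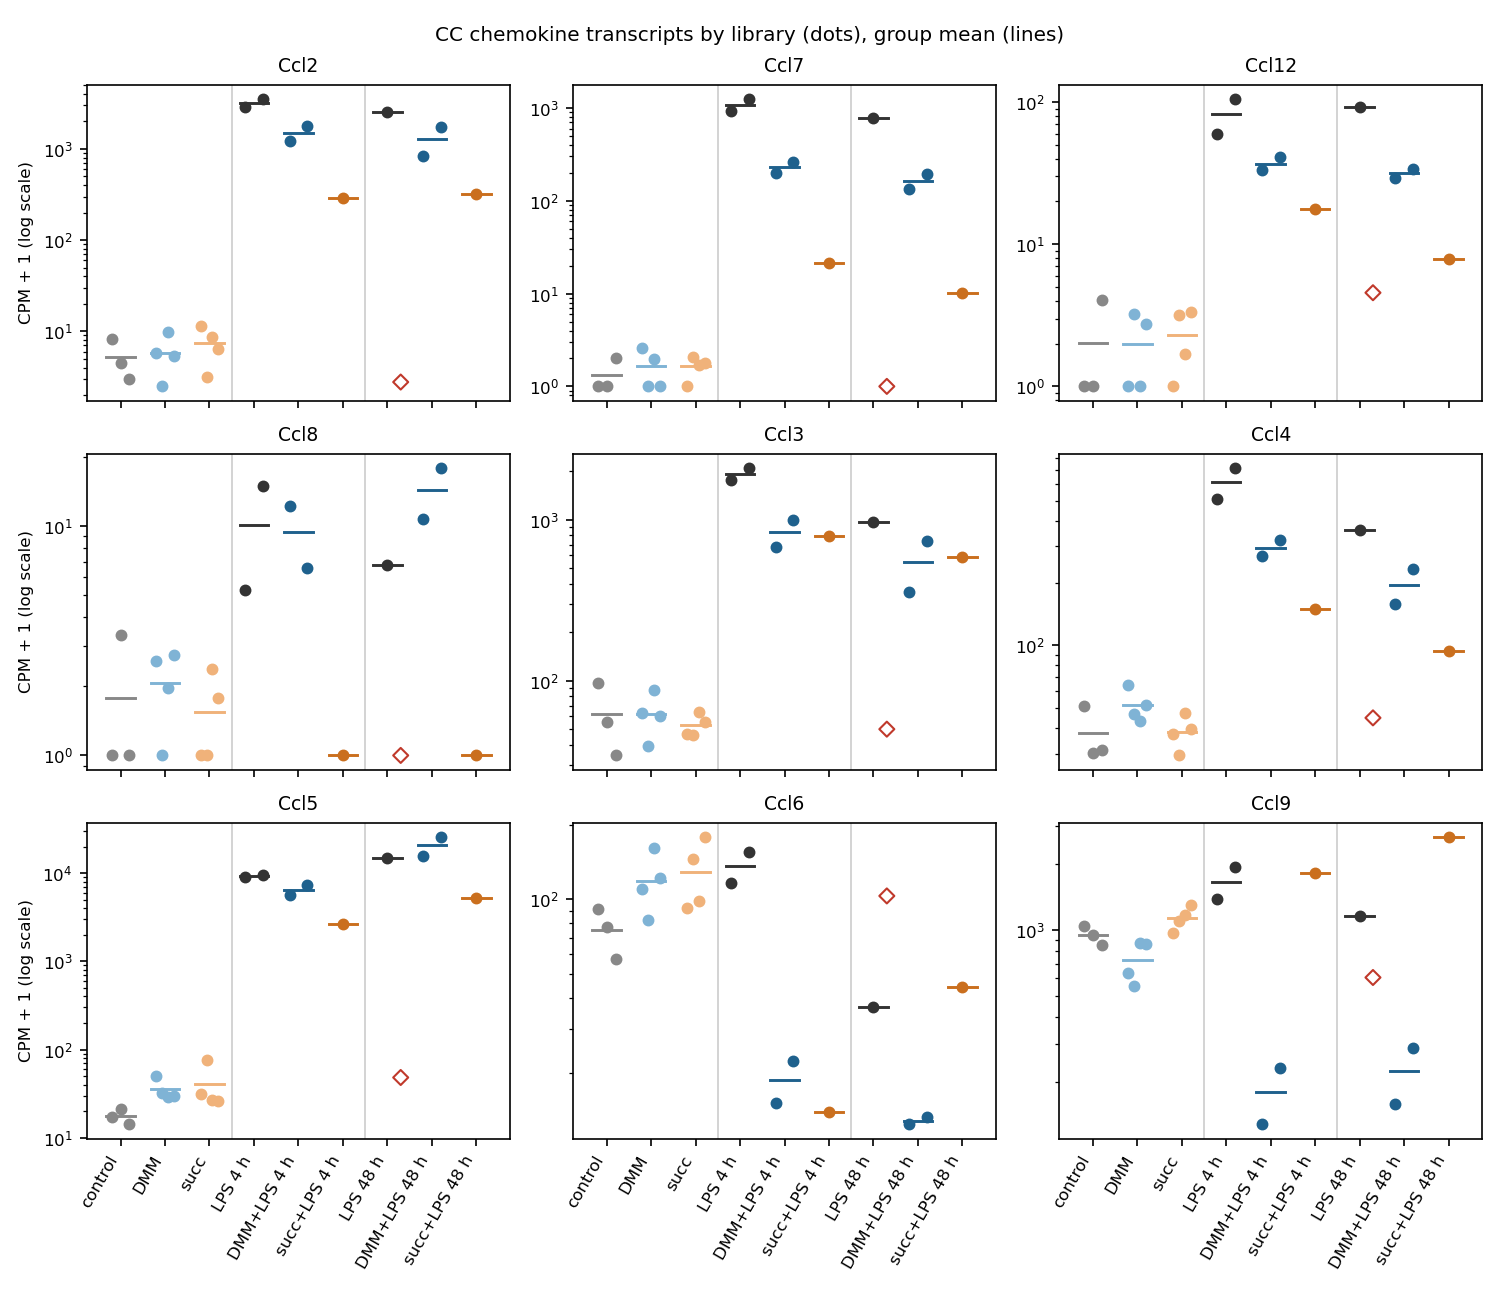
CPM plus 1 on a log axis for each of the 9 chemokines; each dot is 1 library, each line the mean of its group, and the open diamond is the library labelled LPS 48 h 1, which is in no mean. Ccl2, Ccl7, Ccl12, Ccl3, Ccl4 and Ccl5 lie higher in every library given LPS than in every unstimulated one, the diamond aside, whereas Ccl6 and Ccl9 lie lowest after DMM then LPS or, for Ccl6, also after succinate then LPS 4 h.

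At 48 h LPS raised 6 of the 9 chemokines against control, beside 12.5% of all tested genes called higher. In the 1 library used, Ccl5 lay at 14966 CPM, with a log2 fold change of 9.83 ± 0.56, and Ccl2 at 2524 CPM, with 9.18 ± 0.57 (edgeR adjusted p = 2.16e-14 and 8.63e-14). Ccl7 lay at 779.9 CPM, a ratio to the controls of 2202 (394.1 to 87090), and Ccl12 at 91.7 CPM, a ratio of 86.3 (28.7 to 425.9). Ccl3 lay at 960.4 CPM and Ccl4 at 360.01 CPM, with log2 fold changes of 3.97 ± 0.44 and 3.29 ± 0.35. The other 3 members were not called. Ccl6 lay at 35.7 CPM, below every control (log2 fold change -1.06 ± 0.44, adjusted p = 0.0888), Ccl9 at 1160.1 CPM and Ccl8 at 5.79 CPM.

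LPS 48 h and LPS 4 h were set against each other directly. None of the 9 members was called between them, and edgeR called 0.0147% of all genes (1 gene, and 5 by DESeq2; the unadjusted p was under 0.05 for 316). Ccl6 had the largest difference, -1.92 ± 0.46 on the log2 scale (adjusted p = 0.142). Titles of the 4 h and 48 h libraries follow different patterns, and whether the 2 sets were prepared together is not given, so hours and set cannot be told apart. In cells given DMM before LPS, 0 members were called between 48 h and 4 h, beside 1.17% of all genes in either direction. Ccl5 came closest: 15564 and 25803 CPM at 48 h against 5610 and 7299 CPM at 4 h, a log2 difference of 1.68 ± 0.45 (adjusted p = 0.0571). DESeq2 called it (adjusted p = 0.00199), as did edgeR without the filter on low counts (0.00284) and without DMM then LPS 48 h library 1 (0.00444).

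Without LPS neither DMM nor succinate changed a member beyond the threshold. DMM against control had 0 members called, beside 0.558% of all genes in either direction (38 genes; 803 at an unadjusted p under 0.05). Succinate against control had 0 members called, beside 0% of all genes (2 genes by DESeq2; the unadjusted p was under 0.05 for 363). Ccl5 and Ccl6 had the smallest p among the members in both comparisons. Ccl5 lay at 49.1, 31.3, 28.3 and 28.7 CPM in DMM libraries 1 to 4 and at 30.6, 75.3, 25.7 and 25.1 CPM in succinate libraries 1 to 4, all above the highest control at 19.9 CPM. The log2 fold changes of Ccl5 were 1.04 ± 0.43 with DMM (95% interval 0.17 to 1.91, edgeR adjusted p = 0.304) and 1.23 ± 0.42 with succinate (0.37 to 2.09, adjusted p = 0.785). Those of Ccl6 were 0.66 ± 0.26 with DMM (adjusted p = 0.282) and 0.78 ± 0.26 with succinate (adjusted p = 0.785). Both comparisons share the control libraries. For Ccl9 the 95% interval with DMM ran from -0.96 to 0.19.

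Giving DMM before LPS for 4 h lowered 6 of the 9 chemokines against LPS alone, beside 10.5% of all genes called lower. The largest decreases were those of Ccl9 and Ccl6. Ccl9 lay at 127 and 231 CPM in DMM then LPS 4 h libraries 1 and 2, a log2 fold change of -3.22 ± 0.40 (edgeR adjusted p = 3.16e-06), and so fell below all 11 unstimulated libraries, whose lowest held 551 CPM. Ccl6 lay at 14.0 and 21.4 CPM, a log2 fold change of -2.96 ± 0.38 (adjusted p = 3.55e-06), against 56.5 CPM in the lowest unstimulated library. Against DMM alone, a comparison added after the data were seen, both genes fell, with log2 fold changes of -2.03 ± 0.36 for Ccl9 and -2.76 ± 0.35 for Ccl6 (adjusted p = 3.94e-05 and 2.25e-07).

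Of the CCR2 ligands, Ccl7 fell most with DMM before LPS 4 h. It lay at 197 and 258 CPM, a log2 fold change of -2.25 ± 0.35 against LPS alone (edgeR adjusted p = 4.32e-05). Ccl12 lay at 32.03 and 39.9 CPM, with -1.19 ± 0.36 (adjusted p = 0.0244). Ccl2 lay at 1220.1 and 1800.4 CPM, below both LPS libraries, but its -1.08 ± 0.42 was not called (adjusted p = 0.0810). It was called without the filter on low counts (0.0317) and with only the unstimulated and 4 h LPS groups in the model (0.0331). Ccl3 lay at 678 and 999 CPM (-1.21 ± 0.41, adjusted p = 0.0441) and Ccl4 at 268 and 320.3 CPM (-1.06 ± 0.31, adjusted p = 0.0205), and both fell. Ccl5, at 5610 and 7299 CPM, had -0.52 ± 0.44 and was not called (adjusted p = 0.458). Ccl8, at 11.2 and 5.57 CPM, overlapped the LPS libraries.

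The calls for Ccl12, Ccl3 and Ccl4 changed with the libraries used and in part with the tool. DESeq2 called neither Ccl12 (adjusted p = 0.111) nor Ccl3 (0.0533), and the edgeR call of Ccl3 was also lost without LPS 4 h library 1 (0.0998). Only Ccl7, Ccl6 and Ccl9 were called when DMM then LPS 4 h library 1, DMM then LPS 4 h library 2 or LPS 4 h library 2 was left out in turn, and with all 21 libraries only Ccl6 and Ccl9 were called (Ccl7 adjusted p = 0.287). The Ccl7 log2 fold change with all 21 libraries was -2.25, close to that of the main fit. That setting adds the library that did not match its label to another group, LPS 48 h. In DMM then LPS 4 h against LPS 4 h S100a8 rose, by 2.26 ± 0.32 on the log2 scale, and Dcn by 2.34 ± 0.51. The macrophage markers Emr1, Csf1r and Itgam fell (edgeR adjusted p = 0.0389, 0.0205 and 0.00137). These are 3 of 8 markers, beside 10.5% of all genes called lower. The part of S100a8, Dcn and these markers in the chemokine results was not tested. The summed macrophage list was 119367 to 138885 CPM after LPS 4 h and 83623 to 124207 CPM after DMM then LPS 4 h, which overlap. Most of this sum was Lyz2, with 180463 and 253018 counts over the libraries of these groups. The overlap therefore says little of the other markers.

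The DMM by LPS interaction at 4 h asks whether LPS changed a gene differently after DMM. It was called as lower for 3 members, beside 4.49% of all genes. The interaction was -3.62 ± 0.46 for Ccl6, -2.84 ± 0.48 for Ccl9 and -1.50 ± 0.42 for Ccl4 on the log2 scale (edgeR adjusted p = 2.54e-05, 0.000488 and 0.0279). For Ccl6 and Ccl9 the LPS change was 0.86 and 0.81 without DMM and -2.76 and -2.03 with it. The Ccl4 call was lost when any of 7 libraries was left out, among them LPS 4 h library 2 (adjusted p = 0.168), and with all 21 libraries (0.322). Ccl7, with 1 and 2 counts in the control and DMM groups, was not called (adjusted p = 0.360).

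**Figure D3:**
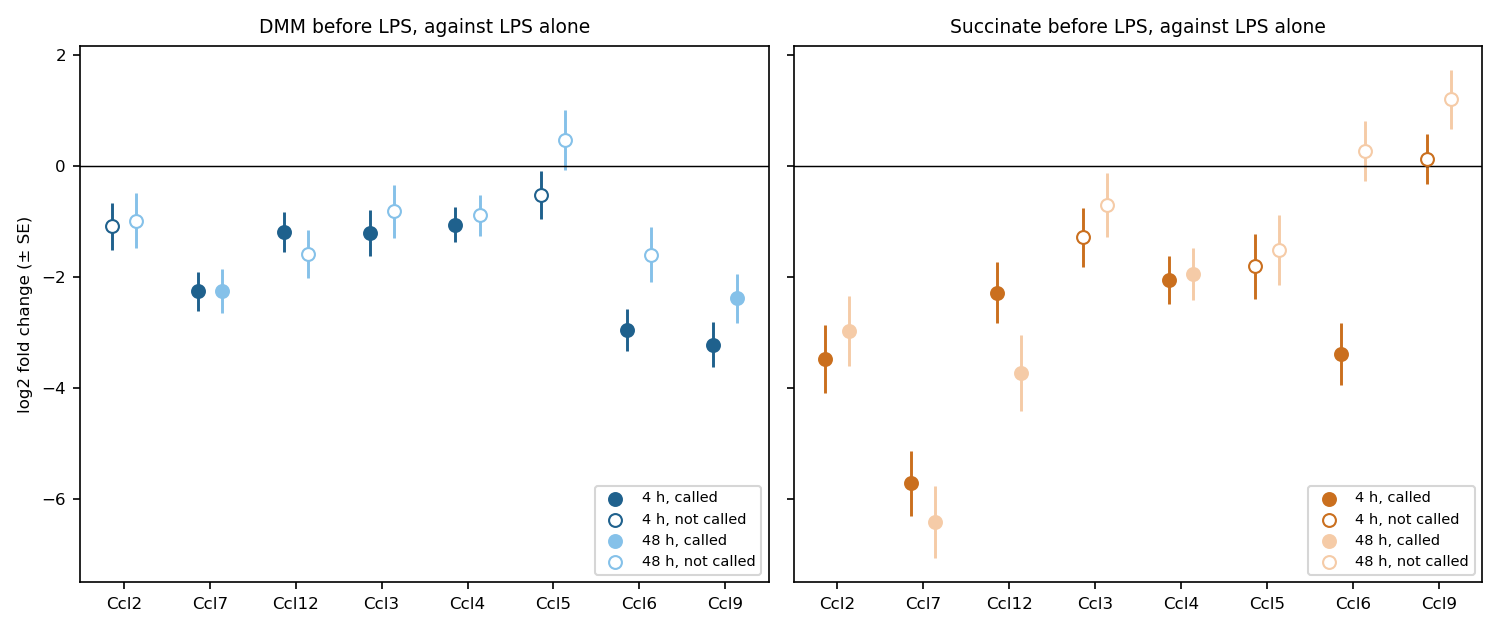
Log2 fold change ± SE against LPS alone at the same hours for 8 chemokines, after DMM (left) and after succinate (right); filled symbols were called by edgeR and open ones were not. Ccl8 is left out because it had 0 counts after succinate then LPS. Ccl7 is filled in all 4 comparisons, and Ccl9 is filled only on the side of DMM.

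At 48 h, DMM before LPS lowered 2 members, beside 0.661% of all genes called lower. Ccl7 lay at 132 and 195 CPM against 779.9 CPM in the LPS 48 h library, a log2 fold change of -2.25 ± 0.39 (edgeR adjusted p = 0.00150). Ccl9 lay at 159 and 287 CPM against 1160.1 CPM, with -2.38 ± 0.44 (adjusted p = 0.00314). Ccl6, at 11.3 and 12.2 CPM against 35.7 CPM, had -1.59 ± 0.50 and was not called (adjusted p = 0.132). Ccl12 had -1.58 ± 0.43 (adjusted p = 0.0734; 0.00659 without the filter on low counts), Ccl2 had -0.99 ± 0.49 (adjusted p = 0.379), and Ccl5 was higher in both libraries than in the LPS library, at 0.47 ± 0.54 (adjusted p = 0.765). The Ccl7 call was lost with all 21 libraries (adjusted p = 0.710). The difference between the DMM effects at 48 h and 4 h was called for 0 members and 0% of all genes (1 by DESeq2; the unadjusted p was under 0.05 for 357 genes). For Ccl7 that difference was 0.00 ± 0.59, with a 95% interval of -1.21 to 1.21.

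Succinate before LPS for 4 h lowered 5 of the 9 chemokines in the 1 library of that group, beside 0.499% of all genes called lower. All 3 CCR2 ligands fell by edgeR. Ccl7 lay at 20.6 CPM (16 counts), against 916 and 1252 CPM with LPS alone, a log2 fold change of -5.71 ± 0.59 (edgeR adjusted p = 1.79e-07). Ccl2 lay at 288 CPM (-3.47 ± 0.62, adjusted p = 0.00142) and Ccl12 at 16.7 CPM (-2.28 ± 0.56, adjusted p = 0.0337; 0.0576 with DESeq2). Ccl4 fell to 148 CPM (-2.05 ± 0.43, adjusted p = 0.00934), and Ccl6 to 12.9 CPM (-3.38 ± 0.56, adjusted p = 0.000495). Ccl9 did not follow Ccl6: at 1821 CPM it lay between the LPS libraries, with 0.13 ± 0.45 (95% interval -0.79 to 1.05). Ccl5, at 2659 CPM, had -1.80 ± 0.58 (adjusted p = 0.219; 0.0328 with DESeq2), and Ccl3, at 794 CPM, had -1.28 ± 0.52 (adjusted p = 0.471). Ccl8 had 0 counts, against 4 and 13 counts in LPS 4 h libraries 1 and 2, and was not called (adjusted p = 0.335). Without LPS 4 h library 2 the calls of Ccl12 and Ccl4 were lost (adjusted p = 0.350 and 0.0980), and with all 21 libraries only Ccl6 was called.

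At 48 h, succinate before LPS lowered 4 members, again in 1 library and against 1 library of LPS alone, beside 0.220% of all genes called lower. Ccl7 lay at 9.09 CPM (8 counts) against 779.9 CPM, a log2 fold change of -6.40 ± 0.65 (edgeR adjusted p = 4.03e-07). Ccl12 lay at 6.82 CPM (-3.73 ± 0.68, adjusted p = 0.00430) and Ccl2 at 323 CPM (-2.97 ± 0.64, adjusted p = 0.0184). Ccl4 lay at 93.2 CPM (-1.95 ± 0.47, adjusted p = 0.0447). Ccl9 reached 2671 CPM, its highest value in any library, but the 1.20 ± 0.53 against LPS alone was not called (adjusted p = 0.660). Ccl6, at 43.2 CPM, had 0.27 ± 0.53. Ccl8 had 0 counts. With all 21 libraries none of these 4 was called. S100a8 rose in both succinate comparisons, by 3.37 ± 0.36 at 4 h and 3.37 ± 0.58 at 48 h, and its part in the chemokine results was not tested.

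A further 6 comparisons were added after the data were seen. Against DMM alone, all 9 members were called at both 4 h and 48 h of LPS, 7 higher and 2 lower, beside 34.1% and 30.8% of all genes in either direction. The lower ones were Ccl6 and Ccl9. Without DMM then LPS 4 h library 1, Ccl8 lost its call at 4 h (edgeR adjusted p = 0.136). Against succinate alone, 7 members were called at each time, 6 higher and 1 lower, beside 18.4% and 19.9% of all genes. The lower one was Ccl6, at -3.30 ± 0.54 and -1.57 ± 0.43 on the log2 scale. Ccl2 thus still rose after succinate, by 5.46 ± 0.48 at 4 h and 5.62 ± 0.48 at 48 h. Ccl9 rose against succinate alone at 48 h, by 1.24 ± 0.38 (edgeR adjusted p = 0.0197), and had 0.68 ± 0.40 at 4 h (adjusted p = 0.252).

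DMM and succinate before LPS were also set against each other. DMM is the ester of malonate, the dicarboxylate with 1 carbon fewer than succinate; no dose is given, so whether doses matched cannot be judged. At 4 h, 3 members were called, beside 7.57% of all genes in either direction. Ccl2 and Ccl7 were higher after DMM, by 2.39 ± 0.58 and 3.46 ± 0.54 on the log2 scale (edgeR adjusted p = 0.00787 and 0.000105), and Ccl9 was lower, by -3.35 ± 0.45 (adjusted p = 9.53e-06). At 48 h, 4 members were called, beside 3.86% of all genes. Ccl2 and Ccl7 were again higher after DMM, by 1.98 ± 0.57 and 4.15 ± 0.60 (adjusted p = 0.0417 and 3.37e-05), Ccl9 lower, by -3.58 ± 0.45 (adjusted p = 5.97e-06), and Ccl6 lower, by -1.87 ± 0.50 (adjusted p = 0.0263). Ccl3 did not differ beyond its error at either time, at 0.08 ± 0.50 (95% interval -0.93 to 1.09) and -0.11 ± 0.49 (-1.12 to 0.90). With all 21 libraries only Ccl9 was called at either time. At 48 h the Ccl6 call was lost without DMM then LPS 48 h library 1 (adjusted p = 0.160) and the Ccl2 call without library 2 (0.0767), while Ccl5 was called without either (0.0167 and 0.0458).

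Ratios of counts within a library do not depend on its depth, and they separated neighbouring genes. Ccl2 over Ccl7 was 3.13 and 2.82 after LPS 4 h and 3.24 after LPS 48 h. It was 6.20 and 6.97 after DMM then LPS 4 h, 6.28 and 8.80 after DMM then LPS 48 h, 14.0 after succinate then LPS 4 h and 35.5 after succinate then LPS 48 h. The LPS libraries were the lowest and the succinate libraries the highest, without overlap. Each succinate value came from 1 library, with 16 Ccl7 counts at 4 h and 8 at 48 h, so these ratios are imprecise. Ccl9 over Ccl6 was 12.0 and 12.5 after LPS 4 h, 9.04 and 10.8 after DMM then LPS 4 h, and 141.5 after succinate then LPS 4 h, where Ccl6 had 10 counts. At 48 h it was 32.5 after LPS, 14.0 and 23.5 after DMM, and 61.8 after succinate. Ccl3 over Ccl4 was 3.49 and 2.92 after LPS 4 h and 2.53 and 3.12 after DMM then LPS 4 h, which overlap, and 5.37 and 6.32 after succinate then LPS 4 h and 48 h.

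**Figure D4:**
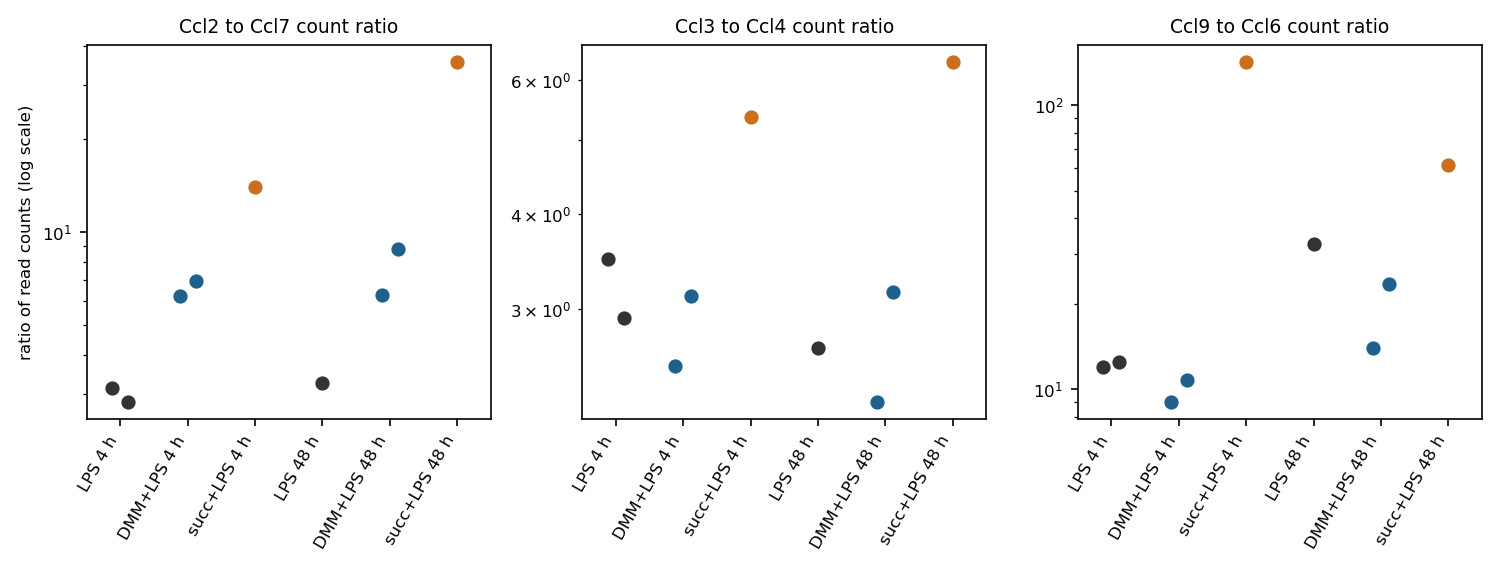
Ratio of read counts of 2 chemokines within each library given LPS, on log axes; each dot is 1 library, without the one labelled LPS 48 h 1. The Ccl2 to Ccl7 ratio lies between 2.82 and 3.24 after LPS alone, between 6.20 and 8.80 after DMM then LPS, and at 14.0 and 35.5 after succinate then LPS. The last 2 rest on 16 and 8 counts of Ccl7.

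Levels of different genes were ordered by mean CPM per kilobase of annotated exon, all isoforms joined. In controls the order was Ccl9 (312 CPM per kilobase), Ccl3 (79.7), Ccl4 (55.4), Ccl6 (41.5), Ccl5 (17.2), Ccl2 (3.71), Ccl12, Ccl8 and Ccl7. Ranges of Ccl3, Ccl4 and Ccl6 overlapped in controls, as did those of the last 3, while Ccl2 overlapped Ccl12 and Ccl8 but not Ccl7. After LPS 4 h the order was Ccl5 (9659 CPM per kilobase), Ccl2 (2810.0), Ccl3 (2524), Ccl7 (1353), Ccl4 (927), Ccl9 (545), Ccl12 (152), Ccl6 (75.2) and Ccl8 (17.9). The LPS 4 h ranges of Ccl2 and Ccl3 overlapped, and those of the other neighbours in this order did not. Ccl5 stayed first in all 6 groups given LPS. After DMM then LPS 4 h Ccl9 came seventh, at 58.8 CPM per kilobase, and after succinate then LPS 4 h it took the third place, at 598, ahead of Ccl2 at 253. Ccl7 moved from the fourth place after LPS 4 h to the seventh after succinate then LPS 4 h, at 25.7.

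Across the 20 libraries, log2 CPM of Ccl2, Ccl7, Ccl12, Ccl3, Ccl4 and Ccl5 had pairwise Pearson correlations of 0.90 or more, a description of libraries that share the contrast of LPS against none. Ccl8 correlated with these at 0.68 to 0.81. Ccl6 and Ccl9 correlated with each other at 0.59 and negatively with every other member. The genes outside the family most like each member, of 4238 with a mean of at least 10 CPM, were Pfkfb3 (r = 0.99) for Ccl2 and Rab20 for Ccl7 (0.97) and Ccl12 (0.96). They were Adam8 (0.98) for Ccl3, Nupr1 (0.94) for Ccl4, Hmox1 (0.99) for Ccl5 and Slamf7 (0.89) for Ccl8. For Ccl6 the most similar gene was Srsf3 (0.89), and for Ccl9 it was Slc25a3 (0.95), followed by the complement receptor gene C5ar1 (0.95).

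The other 15 CC ligands on the list were all in the count table, but none passed the filter, and none had more than 3 counts in a library. Of 15 CC and scavenging receptors in the table, 4 were tested. Ccr2, the receptor of Ccl2, Ccl7 and Ccl12, was higher after DMM alone. It lay at 31.7, 47.0, 31.2 and 37.4 CPM in DMM libraries 1 to 4 against 0, 5.86 and 11.1 CPM in controls, a log2 fold change of 2.70 ± 0.46 (edgeR adjusted p = 0.00509). In the alternative with the fewest calls, DMM against control called 0 genes, so the Ccr2 call was lost there. With LPS 4 h Ccr2 was called lower, at 1.07 and 0 CPM, with 1 count over both libraries (edgeR adjusted p = 0.0475). The control at 0 CPM overlaps these values. Ccr1, a receptor of Ccl3, Ccl5, Ccl6 and Ccl9, lay at 25.3 and 23.2 CPM after DMM then LPS 4 h against 0 and 5.38 CPM after LPS 4 h, with 3.13 ± 0.75 on the log2 scale (adjusted p = 0.00520). In that comparison Ccr1 was higher while Ccl6 and Ccl9 were lower.

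Ccrl2, a receptor that binds without signalling, was called in neither LPS comparison against control.

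**Figure D5:**
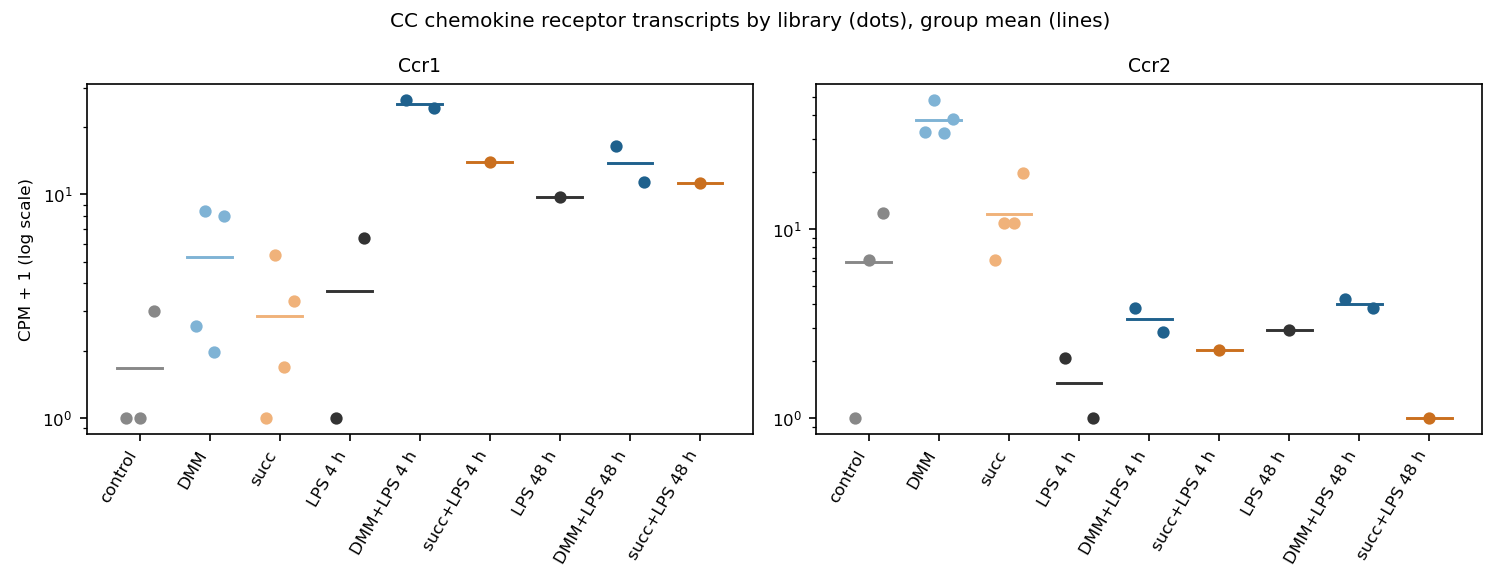
CPM plus 1 on a log axis for the receptor transcripts Ccr1 and Ccr2; each dot is 1 library and each line the mean of its group. Ccr2 is highest in the 4 DMM libraries, at 31.2 to 47.0 CPM, and Ccr1 in DMM then LPS 4 h, at 23.2 and 25.3 CPM.

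Genes that act upstream of the chemokines were taken from fixed lists. Of 12 tested genes of NF-kB and its inhibitors, 9 rose with LPS 4 h, among them the inhibitor Nfkbia (4.60 ± 0.40 on the log2 scale), Nfkbiz (2.95 ± 0.35), the deubiquitinase gene Tnfaip3 (3.40 ± 0.41) and Nfkb2 (2.60 ± 0.40). Before LPS 4 h, DMM changed 0 of these 12 and succinate 0, where 14% and 1.03% of all genes were called in either direction, with medians of -0.15 and 0.09 against 0.04 and -0.03 over all genes. Of 14 IRF and STAT genes, 10 rose with LPS 4 h, led by Irf7 (5.33 ± 0.37), a factor that amplifies interferon. DMM before LPS 4 h lowered 3 of the 14, among them Stat6 (-0.89 ± 0.27) and Jak1 (-0.89 ± 0.28), and succinate 0. Of all genes, 15.4% were called higher with LPS 4 h, 10.5% lower with DMM before it and 0.499% lower with succinate. At 14 genes, the counts after DMM and succinate are not far from those shares. Of 8 LPS receptor and adaptor genes, Cd14 and Myd88 rose with LPS 4 h and Tlr4 fell, beside 15.4% of all genes called higher and 12.5% lower; 0 of the 8 were called with DMM or succinate before LPS 4 h, which at this number is near the shares of all genes.

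Of 8 tested genes for mRNA decay and chemokine processing, 2 rose and 1 fell with LPS 4 h. Of all genes, 15.4% were called higher and 12.5% lower there, so these counts are near the shares of all genes. Mmp14, a membrane metalloproteinase, rose by 7.70 ± 0.55 on the log2 scale and Zc3h12a, which encodes the mRNA-cleaving regnase-1, by 3.69 ± 0.60. Zfp36l2, a gene of mRNA decay, fell, at -2.15 ± 0.45. Before LPS 4 h, DMM lowered Mmp14 (-2.05 ± 0.36) and Zc3h12a (-2.10 ± 0.52) and raised Mmp12, the macrophage elastase (3.24 ± 0.78, edgeR adjusted p = 0.0121). Succinate raised Mmp12 as well, at 619 CPM against 26.7 and 32.3 CPM after LPS 4 h (4.39 ± 0.86, adjusted p = 0.0256).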

How the data were processed

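RNA was measured in 21 bulk libraries. Libraries came from lysed cells by a variant of SmartSeq2, per the labels' protocols; this method amplifies whole template-switched cDNA. The authors deposited whole-number counts of reads per gene; TopHat2, Bowtie, HTSeq and edgeR are named per the submitters' processing notes. Genome build, strand setting and versions: not given in the sources used here. Total counts were 662186 to 1546867 per library, so genes with few counts have wide intervals.

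The members and gene lists were chosen with earlier results of these data known. Groups follow the labels, matched to column names by treatment and, with LPS, hours; the number in a column name is not tied to a sample. Genes were kept with 9.64 CPM or more in 2 or more libraries, which is 10 counts at the median depth, and 15 or more counts in all. Each comparison was tested with edgeR 4.0.16 (R 4.3.3), quasi-likelihood with robust estimation, TMM scaling, 1 model of 9 groups and 20 libraries with 11 residual degrees of freedom, and Benjamini-Hochberg adjustment over 6812 genes at a threshold of 0.05, two-sided. Values after ± are approximate standard errors unless given as SD. Each was derived as the absolute log2 fold change divided by the square root of the quasi-likelihood F. The 95% intervals of log2 fold changes rest on these values. Of the comparisons, 12 were planned and 6 were added after the data were seen. Where a group held 1 to 3 counts, the ratio of scaled counts with its 95% counting interval replaces the fold. Named genes were all members, from each list the 4 genes of smallest p after LPS 4 h and the 2 after DMM then LPS 4 h, receptors with at least 10 counts in a library, and the genes most correlated with each member (log2 CPM, prior count 2); Jak1, Mmp12, Emr1, Csf1r, Itgam, S100a8 and Dcn, where outside this rule, were chosen with their values seen. Alternatives were DESeq2 1.42.0, size factors by median of ratios, keeping genes of low counts, all 21 libraries, 1 LPS time with the unstimulated libraries, a block for the column number, and each library left out in turn. The edgeR steps were tried on simulated counts with 1 spread for all genes, and only for DMM then LPS 4 h against LPS 4 h. Comparisons with a group of 1 library were not covered. Some genes of the lists are counted but not reported here by name.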

Additional observations from a re-analysis of the deposited data

Results flagged for a closer look

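Within the unstimulated groups of 4 libraries, a single library stood far from the other 3 in 2 cases of 18 tested, where chance alone sets apart about 1 in 20. Ccl5 was at 49.1 CPM in DMM library 1, against at most 31.3 CPM in the other DMM libraries. Ccl5 was at 75.3 CPM in succinate library 2, against at most 30.6 CPM in the other succinate libraries.

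The change with LPS at 4 h differed between cells with and without DMM for 3 members by the interaction test: Ccl4 by -1.50, Ccl6 by -3.62 and Ccl9 by -2.84 on the log2 scale, where 4.49% of all genes were called lower. The Ccl4 call was lost when any of 7 libraries was left out and with all 21 libraries.

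The library labelled LPS 48 h 1, which entered a comparison only under the alternative with all 21 libraries, held 3 members above the highest control library: Ccl12 at 3.56 CPM (4 counts) against 2.99 CPM, Ccl5 at 47.2 CPM against 19.98 CPM and Ccl6 at 102.3 CPM against 90.1 CPM, on the scale of all 21 libraries. It held 2 members below the lowest control: Ccl9 at 604 CPM against 843 CPM, and Ccl2 at 1.78 CPM (2 counts) against 1.99 CPM, with Ccl2 at 2634 CPM in LPS 48 h library 2.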

How the results depend on the processing

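Of 1539 values of single members under the alternatives, 1450 kept direction and side of the threshold, 58 lost the call, 31 gained one and 0 reversed. The setting with all 21 libraries adds the library that did not match its label to the LPS 48 h group. For succinate then LPS 4 h the log2 fold change of Ccl7 was -5.70 there and -5.71 in the main fit, though its call was lost. Lost calls under this setting are therefore no measure of how steady a fold change was. Counts of members called that moved by over 1.5 times were these, and their cause was not tested. With all 21 libraries, the count for DMM then LPS 4 h against LPS 4 h was 2 in place of 6, for succinate then LPS 4 h 1 in place of 5, for succinate then LPS 48 h 0 in place of 4, for succinate then LPS 48 h against succinate 3 in place of 7, and for DMM against succinate before LPS 1 in place of 3 at 4 h and 1 in place of 4 at 48 h. Without the filter on low counts, LPS 48 h against 4 h gave 1 in place of 0 (Ccl6), DMM then LPS 48 h against 4 h gave 1 in place of 0 (Ccl5, as with DESeq2, 1), and DMM against succinate before LPS 48 h gave 7 in place of 4. Leaving out each library gave 3 to 5 for DMM then LPS 4 h, 3 to 5 for succinate then LPS 4 h and 0 to 1 for DMM then LPS 48 h against 4 h. Column numbers are not stated to pair libraries: deviations of same-numbered libraries of LPS 4 h and DMM then LPS 4 h correlated at 0.0044 across genes. The model with a replicate block holds nearly as many terms as libraries, so few residual degrees of freedom remain. Its block term at 48 h is estimated only from the DMM then LPS 48 h libraries, yet it also shifts groups with 1 library. Calls gained under it are therefore weakly founded. With the replicate block, among libraries given LPS only, 7 members were called in DMM then LPS 4 h against LPS 4 h (Ccl2 gained, adjusted p = 0.00343), Ccl12 was called in DMM then LPS 48 h against LPS 48 h (0.00705), Ccl9 was called higher in succinate then LPS 48 h against LPS 48 h (log2 fold change 1.98, 0.0173), Ccl3 and Ccl5 were called lower in succinate then LPS 4 h (0.00833 and 0.00790), 1 in LPS 48 h against 4 h (Ccl3) in place of 0, and 7 in DMM against succinate before LPS at 4 h in place of 3 and 7 at 48 h in place of 4. Counts over all genes moved more: 1414 for LPS 48 h against control (502 to 1405 under the alternatives), 38 for DMM (0 to 140), 0 for succinate (0 to 6), 956 for DMM then LPS 4 h against LPS 4 h (289 to 1719), 55 at 48 h (34 to 334), 70 for succinate then LPS 4 h (8 to 233), 38 at 48 h (6 to 347), 1 for LPS 48 h against 4 h (1 to 213), 80 for DMM then LPS 48 h against 4 h (10 to 283), 370 for the interaction (84 to 516), 0 for the difference of DMM effects (0 to 305), 2322 for DMM then LPS 4 h against DMM (1459 to 2349), 1256 and 1357 for succinate then LPS 4 h and 48 h against succinate (793 to 1331 and 881 to 1354), and 516 and 263 for DMM against succinate before LPS 4 h and 48 h (145 to 969 and 61 to 1156). Median-of-ratios size factors shifted the median of all genes by at most 0.0315 on the log2 scale. Groups of 1 library and members with under 10 counts limit the precision.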
